A study of Mus musculus with 36 samples.

Results

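The MHC class II presentation genes H2-Aa, H2-Ab1, H2-Eb1, Cd74, Ciita, H2-DMa and H2-DMb1 were followed in the liver RNA of 36 mice. They are taken by symbol, as a set of genes of 1 pathway that was proposed with earlier results of these data known, and all 7 were found among the 24421 genes counted in every library. Inbred male C57BL/6J mice, 7 weeks old at purchase, were fed for 12 weeks a choline-deficient high-fat diet (CDAHFD) that induces steatohepatitis with fibrosis, and were then treated in 2 separate experiments. In the first, mice then ate an ordinary high-fat diet (HFD), which lasted 2 weeks, and were injected under the skin once a week, 2 times in all, with Fc at 4.3 mg/kg (10 mice) or Fc(mML1)B3 at 5 mg/kg (10 mice). In the second, mice were moved to a standard diet for 10 days and injected on days 1, 4 and 7 with Fc at 4.3 mg/kg (9 mice) or Fc(mML1)B3 at 5 mg/kg (7 mice). Fc is the constant fragment of human IgG1 and served as the control protein. Fc(mML1)B3 is the same fragment with a peptide in a surface loop that binds and activates mouse Met, the receptor of hepatocyte growth factor. The study asked whether this agonist changes the diseased liver under either diet. All 4 groups share the preceding CDAHFD feeding, and no untreated or pretreatment liver was analysed here.

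MHC class II molecules sit on the surface of dendritic cells, B cells and macrophages and show peptides from engulfed proteins to CD4 T cells. H2-Aa and H2-Ab1 encode the alpha and beta chains of the I-A molecule, and H2-Eb1 encodes the beta chain of I-E. Cd74 encodes the invariant chain, which fills the binding groove of new class II molecules, and H2-DMa and H2-DMb1 encode the DM molecule, which exchanges the remaining invariant chain fragment for other peptides. Ciita encodes the class II transactivator, a protein that binds no DNA itself and docks on factors already bound to the X and Y boxes of class II promoters. C57BL/6 mice lack the I-E alpha chain because its gene is defective, so that their H2-Eb1 product finds no partner.

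On mm10, the genome build of the counts, 5 of the 7 genes lie within 193.8 kb of chromosome 17, from 34122832 to 34316674. H2-DMa occupies 34122832 to 34139101 on the plus strand, H2-DMb1 34153191 to 34160229 on the plus strand, H2-Ab1 34263227 to 34269418 on the plus strand, H2-Aa 34282751 to 34287771 on the minus strand and H2-Eb1 34305867 to 34316674 on the plus strand. The exons of these 5 genes overlap no other annotated gene. Reads that could not be told apart between H2-DMb1 and its close relative H2-DMb2, or among other class II genes, were not counted to either, so levels of this family carry that uncertainty.

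Promoters were taken from RefSeq (GRCm38.p6), which gave windows for 4 of the 7 genes (H2-Aa, H2-Eb1, H2-DMa and H2-DMb1). They are shown because these genes moved together from mouse to mouse, as described further on. Each line gives the 130 bases just before the annotated start, 5′ to 3′ on the gene's own strand, and capitals mark every CCAAT (the core of the Y box, bound by NF-Y) and every GCAAC (part of the X box, bound by RFX) on either strand.
H2-Aa, chr17:34287824-34287953, minus strand: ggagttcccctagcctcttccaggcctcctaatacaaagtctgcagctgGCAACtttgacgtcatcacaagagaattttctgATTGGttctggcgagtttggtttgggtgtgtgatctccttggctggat
H2-Eb1, chr17:34305737-34305866, plus strand: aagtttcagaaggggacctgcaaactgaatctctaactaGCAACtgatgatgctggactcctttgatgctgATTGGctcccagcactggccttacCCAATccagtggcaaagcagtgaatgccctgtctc
H2-DMb1, chr17:34153061-34153190, plus strand: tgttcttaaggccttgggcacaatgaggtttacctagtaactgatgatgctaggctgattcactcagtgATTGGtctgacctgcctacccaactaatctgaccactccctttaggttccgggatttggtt
H2-DMa, chr17:34122702-34122831, plus strand: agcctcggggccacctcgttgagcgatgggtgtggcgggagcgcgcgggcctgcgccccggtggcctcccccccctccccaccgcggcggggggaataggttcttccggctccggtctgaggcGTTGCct

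In H2-Aa, the letters GCAAC began 81 bases before the start and ATTGG, the other strand of CCAAT, 48 bases before it. In H2-Eb1, GCAAC began 91 bases and ATTGG 59 bases before the start, and a further CCAAT 35 bases before it. H2-DMb1 held ATTGG 61 bases before the start and no GCAAC. In H2-DMa the only match was GTTGC, the other strand of GCAAC, 7 bases before the start. Over all 32851 RefSeq windows of 300 bases (250 before to 50 after a start), 37.4% held CCAAT, 35.2% held GCAAC and 13.7% held both, so a match by itself is common. The longest run of bases shared by any pair of the 4 full windows, looked for after the sequences were seen, was the 13 bases AACTGATGATGCT, which begin 89 bases before the start of H2-Eb1 and 92 bases before that of H2-DMb1. It occurred in 3 of the 32851 windows, a count that includes the windows of H2-Eb1 and H2-DMb1 from which it was taken. The RefSeq start of H2-Aa lies 52 bases upstream of the first exon base in the counting annotation, and the other 3 starts coincide with it.

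Each library is 1 mouse, and total counts ranged from 14949035 to 28466853. The 7 genes drew between 22 reads (Ciita in the lowest library) and 12466 reads (Cd74 in the highest), and all of them passed the filter on low counts in each comparison. Each end of a pair was counted as a read, so reads outnumber fragments here and in the read numbers that follow. Every pair of libraries within a group differed beyond sampling noise. The 8 hepatocyte markers, Alb and Apoa1 among them, had a summed level between 72005 and 147212 CPM in every library (counts scaled to library size after TMM normalization), and the label is liver tissue. The tissue is bulk liver, so fewer class II positive cells and less class II RNA per cell cannot be told apart in any result that follows.

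Ciita lies on chromosome 16 from 10480072 to 10527640, and Cd74 on chromosome 18 from 60803849 to 60812652, both on the plus strand of mm10. The exons of Cd74 overlap the microRNA gene Mir5107 on the same strand, and those of Ciita overlap no other annotated gene. Levels of different genes were compared per kilobase of exon (RPKM). Averaged over 36 livers, Cd74 stood at 206 RPKM, H2-Aa at 118, H2-Ab1 at 89.5, H2-Eb1 at 52.8, H2-DMb1 at 9.24, H2-DMa at 6.92 and Ciita at 0.608. Each gene lay above the next one in all 36 libraries, so the order held in every group. The invariant chain RNA was thus 1.75 times that of the I-A alpha chain and 22.3 times that of H2-DMb1. H2-Eb1 RNA was present at 52.8 RPKM on average, while the I-E alpha pseudogene H2-Ea-ps had 3 reads over all libraries and none in 34 of the 36.

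**Figure D1:**
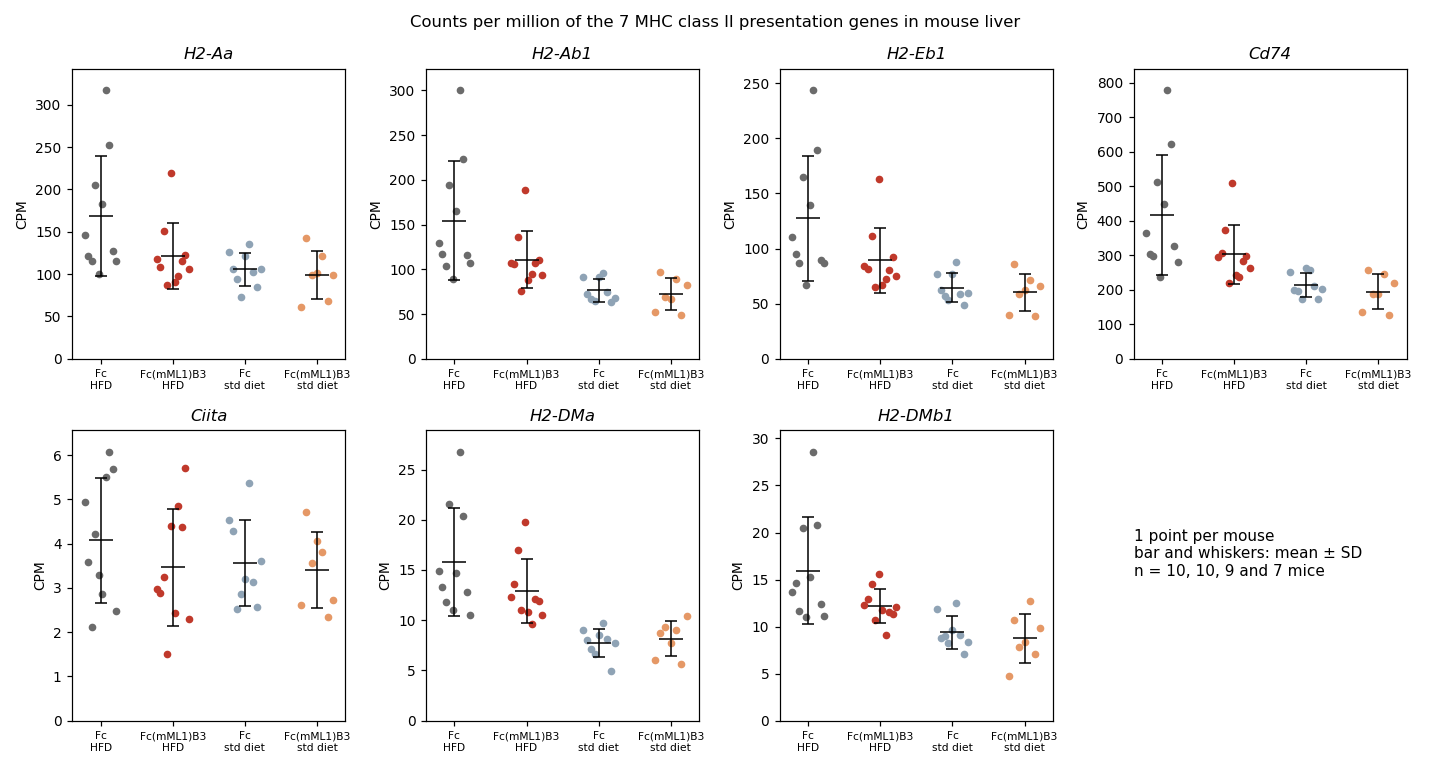
CPM (normalized counts) of the 7 genes, with 1 point per mouse and bars for the mean ± SD in the Fc HFD (n = 10), Fc(mML1)B3 HFD (n = 10), Fc standard diet (n = 9) and Fc(mML1)B3 standard diet (n = 7) groups; each panel starts at 0 and has its own scale. Fc HFD mouse 7, at 317 CPM of H2-Aa and 779 CPM of Cd74, lies at the top of 6 panels, and Fc(mML1)B3 HFD mouse 5 lies above the rest of its group in the same 6.

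Under the HFD, the class II genes were lower on average in the Fc(mML1)B3 mice than in the Fc mice, but none passed the test. H2-Aa ran from 99.7 to 317 CPM in Fc livers (median 136.9) and from 87.1 to 219 CPM in Fc(mML1)B3 livers (median 112). The groups overlapped over most of their range, with a log2 fold change of -0.46 (standard error, SE, 0.20) and an adjusted p of 0.12 (edgeR, adjusted by Benjamini-Hochberg over 13299 genes). H2-Ab1 went from a median of 124 CPM (89.2 to 300.3) to 106 CPM (75.6 to 189), and H2-Eb1 from 103 CPM (67.4 to 244) to 81.0 CPM (64.7 to 163). Their log2 fold changes were -0.47 and -0.50 (SEs 0.20 and 0.21, edgeR adjusted p = 0.11 for both).

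The invariant chain gene Cd74 gave values close to these. Its median was 345 CPM (236 to 779) in Fc livers and 289.9 CPM (218 to 509) in Fc(mML1)B3 livers, with a log2 fold change of -0.45 (SE 0.19, edgeR adjusted p = 0.12). Of the DM genes, H2-DMa had medians of 14.01 CPM (10.5 to 26.7) and 12.0 CPM (9.63 to 19.8), with a log2 fold change of -0.28 (SE 0.17, edgeR adjusted p = 0.27). H2-DMb1 had medians of 14.1 CPM (10.97 to 28.6) and 11.9 CPM (9.07 to 15.6), with a log2 fold change of -0.37 (SE 0.16, edgeR adjusted p = 0.11). The transactivator gene Ciita had medians of 3.90 CPM (2.11 to 6.07) and 3.12 CPM (1.498 to 5.71), with a log2 fold change of -0.21 (SE 0.22, edgeR adjusted p = 0.55).

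In this comparison, edgeR therefore called 0 of the 7 genes, while 14.8% of all genes tested were called in either direction and 6.68% as lower. At an unadjusted p below 0.05, 5 of the 7 were lower, against 14.5% of all genes, the exceptions being Ciita and H2-DMa. DESeq2 called 0, and limma-voom with quality weights called H2-Ab1 and H2-Eb1 (2 of 7, with 22.9% of all genes). For 6 of the genes, 8 of 10 Fc(mML1)B3 livers were under the Fc median, a count of at least 8 being met by 28.5% of all genes, and for Ciita 6 were. When calls required more than a 2-fold difference and an adjusted p below 0.1, 0 of the 7 were called, with 1.34% of all genes. The 95% interval of the H2-Aa difference ran from -0.87 to -0.05 on the log2 scale and that of Ciita from -0.67 to 0.24.

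A few livers carried much of the difference. Fc mouse 7 was the highest of its group in 6 of the 7 genes, with 300.3 CPM of H2-Ab1, 779 CPM of Cd74 and 26.7 CPM of H2-DMa, followed by Fc mice 8 and 4. Among the Fc(mML1)B3 mice, mouse 5 was the highest in the same 6 genes, with 189 CPM of H2-Ab1 and 509 CPM of Cd74. Without Fc mice 7 and 8, a choice made after the values were seen, the median log2 fold change of the 7 genes moved from -0.45 to -0.18 and edgeR called 0 of 7 (0 at an unadjusted p below 0.05), with 13.7% of all genes called. Without Fc(mML1)B3 mouse 5, the median was -0.56 and edgeR called 4 of 7, namely H2-Aa (adjusted p = 0.026), H2-Ab1 (0.029), H2-Eb1 (0.023) and Cd74 (0.033), with 21.3% of all genes called. Without all 3 mice the median was -0.29 and 0 of 7 were called, with 17.9% of all genes called. In that fit 4 of 7 were lower at an unadjusted p below 0.05, as were 16.7% of all genes. The Fc libraries of this experiment all carry one run of S numbers in their library names and the Fc(mML1)B3 libraries 2 other runs, so protein and run cannot be told apart. Against all Fc mice, the 4 Fc(mML1)B3 libraries of one run gave a median log2 fold change of -0.51 over the 7 genes and the 6 of the other run -0.42.

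Under the standard diet, the class II genes differed little between the proteins. H2-Aa had medians of 106 CPM (73.0 to 135.2) in Fc livers and 99.1 CPM (61.0 to 142.2) in Fc(mML1)B3 livers. H2-Ab1 had medians of 72.4 CPM (63.0 to 96.4) and 68.8 CPM (48.7 to 97.3), and H2-Eb1 of 60.1 CPM (48.8 to 88.3) and 62.1 CPM (39.2 to 86.0). Cd74 had medians of 202 CPM (172 to 264) and 187 CPM (127 to 259). For each of these 4 genes the range of the Fc(mML1)B3 group reached below that of the Fc group and covered most of it. H2-DMa had medians of 8.04 CPM (4.99 to 9.68) and 8.77 CPM (5.67 to 10.4), H2-DMb1 of 9.02 CPM (7.09 to 12.5) and 8.33 CPM (4.72 to 12.7), and Ciita of 3.20 CPM (2.53 to 5.37) and 3.56 CPM (2.35 to 4.71).

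The log2 fold changes of the 7 genes under the standard diet ran from -0.14 (Cd74, SE 0.13) to 0.07 (H2-DMa, SE 0.13), with adjusted p values of 0.51 to 0.82. EdgeR called 0 of 7, as did DESeq2 and limma-voom, while edgeR called 16.1% of all genes. At an unadjusted p below 0.05 the count was also 0, against 29.3% of all genes, and 0 when a difference over 1.5-fold was required beside the adjusted p, against 2.36%. With the limits applied to the HFD mice, a choice made after the values were seen, it was 0 against 0.604%. The 95% interval for Cd74 ran from -0.42 to 0.14 and that for H2-Ab1 from -0.36 to 0.19. Only the libraries of 1 run of S numbers hold both proteins (4 Fc and 7 Fc(mML1)B3 mice), and among them the median log2 fold change was -0.09 with 0 of 7 called.

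Whether Fc(mML1)B3 acted differently under the 2 diets was tested as an interaction over all 36 libraries. The differences between the effects were positive for all 7 genes, from 0.16 for Ciita (SE 0.30) to 0.42 for H2-Eb1 (SE 0.28), with edgeR adjusted p of 0.41 to 0.84. EdgeR, DESeq2 and limma-voom each called 0 of 7, and 9.06% of all genes were called in either direction by edgeR. At an unadjusted p below 0.05 the count was 0, against 21% of all genes. A different effect under the 2 diets was therefore not shown for these genes. Without Fc mice 7 and 8 of the HFD the median of the 7 differences moved from 0.36 to 0.09.

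**Figure D2:**
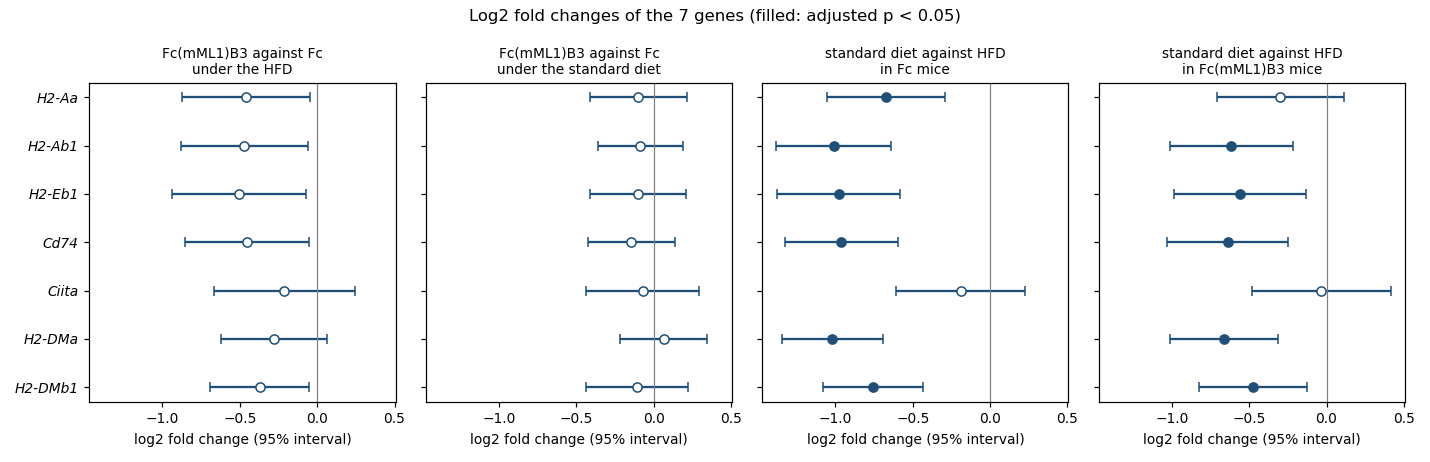
Log2 fold changes of the 7 genes with 95% intervals in 4 comparisons, from edgeR, with filled points for genes called at an adjusted p below 0.05. All points of the 2 comparisons of the proteins are open, while 6 genes are filled in the comparison of the diets in Fc mice and 5 in Fc(mML1)B3 mice, all to the left of 0.

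The larger contrast lay between the 2 experiments. In Fc mice, all class II genes except Ciita were lower under the standard diet than under the HFD, with edgeR calling 6 of 7 lower against 24.6% of all 14105 genes tested. The diets differ together with the experiment, the number and timing of the injections and the run of S numbers, and which of these goes with the difference cannot be told apart. The Fc libraries of each diet also serve in the comparison of the proteins above. H2-Ab1 averaged 154 ± 66.9 CPM under the HFD (SD, n = 10) and fell to 76.6 ± 12.9 CPM (SD, n = 9), which is -1.01 on the log2 scale (SE 0.18, edgeR adjusted p = 2.3e-05). On that scale H2-Eb1 fell by 0.98 (SE 0.20, edgeR adjusted p = 0.00010) and Cd74 fell by 0.96 (SE 0.18, edgeR adjusted p = 4.0e-05). H2-Aa fell less, from 168 ± 71.1 to 106 ± 19.8 CPM (SD, n = 10 and 9), a log2 fold change of -0.67 (SE 0.19, edgeR adjusted p = 0.0035).

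Both DM genes also fell in Fc mice. H2-DMa averaged 15.8 ± 5.36 CPM under the HFD (SD, n = 10) and 7.76 ± 1.39 CPM under the standard diet (SD, n = 9), with a log2 fold change of -1.02 (SE 0.16, edgeR adjusted p = 2.6e-06). It was the only one of the 7 whose groups did not overlap, with the highest standard diet mouse at 9.68 CPM and the lowest HFD mouse at 10.5 CPM, and 1.95% of all genes were separated in this direction. H2-DMb1 fell by 0.76 on the log2 scale (SE 0.16, edgeR adjusted p = 0.00018). Ciita stood at 4.08 ± 1.42 CPM under the HFD compared with 3.57 ± 0.974 CPM on the standard diet (SD, n = 10 and 9), a log2 fold change of -0.19 with a 95% interval from -0.61 to 0.23 (edgeR adjusted p = 0.46). Without Fc mice 7 and 8 of the HFD, 5 of 7 stayed called, and H2-Aa had a log2 fold change of -0.39 (edgeR adjusted p = 0.052). H2-Aa was also not called with only the standard diet Fc libraries of the second run of S numbers, at an adjusted p of 0.057.

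In Fc(mML1)B3 mice the direction was the same, and edgeR called 5 of 7 lower under the standard diet, against 17.9% of all genes. H2-Ab1 went from 111 ± 31.8 to 72.2 ± 18.3 CPM (SD, n = 10 and 7), a log2 fold change of -0.61 (SE 0.20, edgeR adjusted p = 0.012). On the log2 scale, Cd74 fell by 0.64 (SE 0.19, edgeR adjusted p = 0.0084) and H2-DMa fell by 0.66 (SE 0.17, edgeR adjusted p = 0.0023). H2-Eb1 fell by 0.56 (SE 0.21, edgeR adjusted p = 0.033) and H2-DMb1 fell by 0.48 (SE 0.17, edgeR adjusted p = 0.026). H2-Aa had a log2 fold change of -0.30 (95% interval -0.71 to 0.11, edgeR adjusted p = 0.25) and Ciita of -0.03 (95% interval -0.48 to 0.42, edgeR adjusted p = 0.92). H2-Ab1, Cd74 and H2-DMa stayed called with each library left out in turn. With only the 4 HFD libraries of the first run of S numbers, Cd74 and H2-DMa were called and H2-Ab1 had an adjusted p of 0.064, and with only the 6 of the second run all 3 were called. The count dropped to 3 without standard diet Fc(mML1)B3 mouse 1, 3 or 6, each of which took H2-Eb1 and H2-DMb1 past an adjusted p of 0.05. H2-Eb1 was also not called without Fc(mML1)B3 HFD mouse 3 or 5.

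Because the genes were counted in the same libraries, ratios between them do not depend on the scaling of a library, and they showed that the members did not fall by equal amounts. The ratio of H2-Aa to H2-Ab1, the 2 chains of I-A, was 1.22 ± 0.046 in RPKM under the HFD (SD, n = 20, both proteins, range 1.15 to 1.297) and 1.53 ± 0.13 under the standard diet (SD, n = 16, range 1.26 to 1.73). The ratio differed between the diets in Fc mice (1.22 against 1.53, geometric means, 2-sided exact permutation test, p = 6.5e-05) and in Fc(mML1)B3 mice (1.22 against 1.51, p = 0.00010, the lowest value this exact test can give for 10 mice against 7). All but 1 of the 16 standard diet mice lay above the highest HFD mouse of the same protein. These ratios were chosen after their values were seen, and 8 ratios were tested in mice of each protein, 16 exact permutation tests in all, with an adjusted p of 0.00024 for both values above.

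Further ratios, with and without H2-Aa, were set beside it. Cd74 to H2-Ab1 was 2.30 ± 0.093 under the HFD, against 2.32 ± 0.090 on the standard diet (SD, n = 20 and 16), and H2-Ab1 to H2-Eb1 was 1.73 ± 0.082 and 1.67 ± 0.097. The diets differed in neither of these ratios at an adjusted p below 0.05 in mice of either protein (exact permutation tests, adjusted p = 0.14 and 0.31 for Cd74 to H2-Ab1 and 0.31 for both values of H2-Ab1 to H2-Eb1). Cd74 to H2-Aa, in contrast, went from 1.89 ± 0.083 to 1.53 ± 0.13 (SD, n = 20 and 16), and H2-Aa to H2-Eb1 from 2.11 ± 0.087 to 2.55 ± 0.17, each with an adjusted p of 0.00024 in mice of either protein by the exact permutation test. Within the standard diet, the H2-Aa to H2-Ab1 ratio had a median of 1.53 in the 5 Fc libraries of one run of S numbers, 1.55 in the 4 Fc libraries of the other and 1.57 in the 7 Fc(mML1)B3 libraries.

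The ratio of Ciita to H2-Ab1 was 0.00563 ± 0.0021 in Fc mice under the HFD (SD, n = 10) and 0.00923 ± 0.0017 under the standard diet (SD, n = 9), so there was more Ciita RNA per H2-Ab1 RNA under the standard diet (exact permutation test, adjusted p = 0.0021). In Fc(mML1)B3 mice this ratio was 0.00633 ± 0.0023 and 0.00951 ± 0.0017 (SD, n = 10 and 7), with an adjusted p of 0.015 by the same exact test. With only the 6 Fc(mML1)B3 HFD libraries of one run of S numbers, the unadjusted exact p was 0.084. H2-DMa to H2-DMb1 was lower under the standard diet in Fc mice (geometric means 0.768 and 0.639, exact permutation test, adjusted p = 0.00024) and was 0.806 and 0.735 in Fc(mML1)B3 mice (adjusted p = 0.31).

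**Figure D3:**
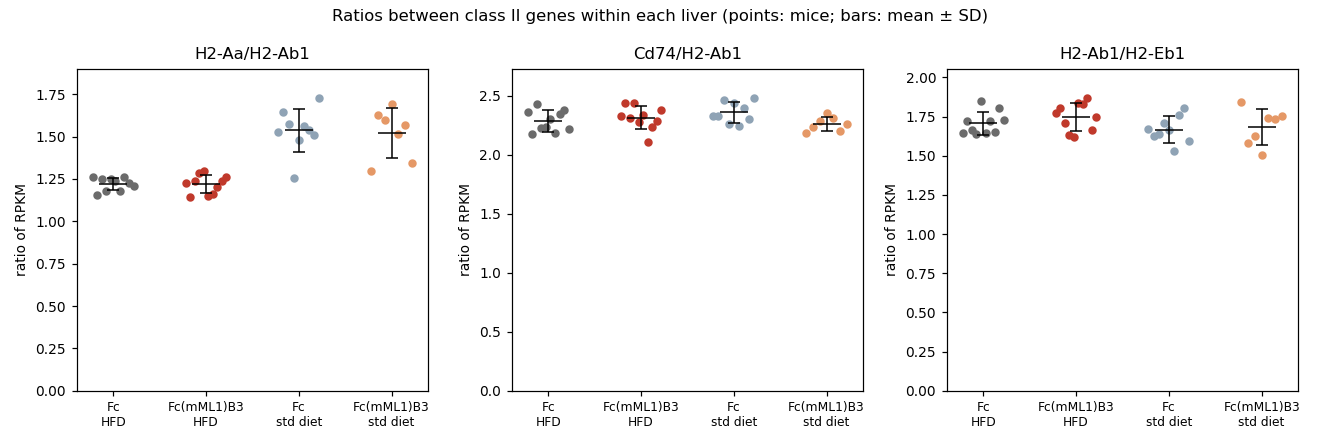
Ratios of the RPKM of 2 class II genes within each liver, for H2-Aa to H2-Ab1, Cd74 to H2-Ab1 and H2-Ab1 to H2-Eb1, with 1 point per mouse, bars for the mean ± SD and axes that start at 0. The H2-Aa to H2-Ab1 ratio is near 1.22 in both HFD groups and near 1.53 in the standard diet groups, while the means of the other 2 ratios differ little between the 4 groups.

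From mouse to mouse within a group, 6 of the 7 genes varied together. After each gene's group mean was taken from its log2 CPM, Pearson's r over the 36 livers was between 0.88 and 0.99 for the 15 pairs without Ciita, as a description with no test. The 6 pairs with Ciita had r between 0.46 and 0.61. The libraries share depth and tissue composition within each point, and Ciita rests on as few as 22 reads, so its values carry more counting error than those of the others. In the Fc HFD group, mouse 7 ranked first of 10 in all 6 genes and had rank 3 in Ciita, and mouse 5 ranked last or next to last in all 6 and had rank 7 in Ciita. In the Fc(mML1)B3 HFD group, mouse 9 was first in Ciita and ranked between 3 and 8 in the other genes.

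**Figure D4:**
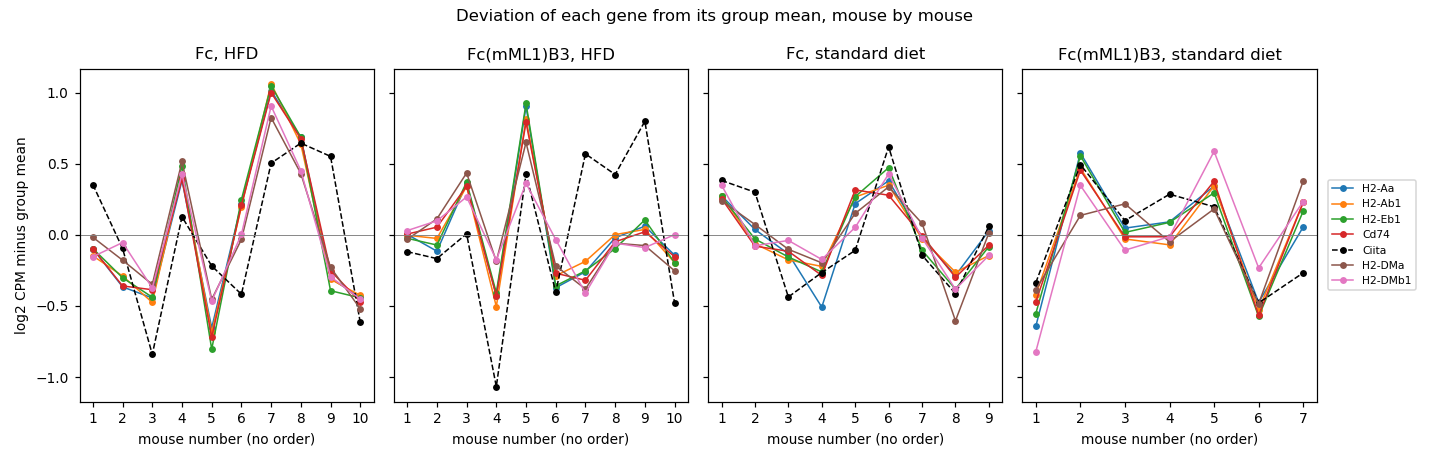
Deviation of each gene's log2 CPM from the mean of its group, for every mouse of the 4 groups, with a line per gene that only guides the eye, since mouse numbers have no order. The lines of 6 genes run close together, with Fc HFD mouse 7 about 1 above its group mean, and the dashed line of Ciita departs from them in several mice.

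The genes most like the class II genes in this mouse-to-mouse pattern were ranked by Pearson's r with the mean of the 7 scaled genes over 36 livers, among 14098 other genes. The highest were Ubd (r = 0.89), Irf8 (0.88), Ctss (0.87), Cd53 (0.87), Coro1a (0.87), Dock2 (0.86), Bcl2a1d (0.86), Vim (0.85), Serpinb6a (0.85) and Lsp1 (0.85). Ubd encodes an ubiquitin-like protein of the MHC region, Irf8 a transcription factor of dendritic cells and macrophages, and Ctss the cathepsin that trims the invariant chain. Cd53, Coro1a, Dock2 and Lsp1 are expressed in most white blood cells. The same r for the 7 genes themselves, each of which is part of that mean, was 0.90 to 0.98 for 6 of them and 0.70 for Ciita.

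Lists of related genes were counted beside the class II genes. The other class II genes were rare, with medians of 47 reads a library for H2-Ob, 22.5 for H2-DMb2, 15 for H2-Oa and 10 for H2-Eb2. H2-Oa and H2-Ob encode the DO molecule, which restrains DM in B cells. Under the HFD, H2-Ob fell in Fc(mML1)B3 mice by 0.76 on the log2 scale (SE 0.24, edgeR adjusted p = 0.033) and was the only one of the 4 tested genes called, while H2-Oa had a log2 fold change of -0.82 (SE 0.29, edgeR adjusted p = 0.058). The share of all genes that were lower was 6.68%. Without Fc mice 7 and 8, edgeR called 0 of the 4, without Fc(mML1)B3 mouse 5 it called 2, and DESeq2 called 2 over all mice. Between the diets in Fc mice 1 of the 4, H2-Oa, was lower (log2 fold change -0.82, edgeR adjusted p = 0.017) and the median was -0.51, beside 24.6% of all genes lower. In Fc(mML1)B3 mice edgeR called 0 of the 4 (1, as higher, at an unadjusted p below 0.05, 0 by DESeq2 and limma-voom). There 1 of the 4 had a negative log2 fold change and the median was 0.13, where the 7 presentation genes had a median of -0.56.

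Of 8 genes of class II processing, edgeR called 0 under the HFD (3 at an unadjusted p below 0.05, 0 by DESeq2 and limma-voom), where 14.8% of all genes were called, and 2 without Fc(mML1)B3 mouse 5. Under the standard diet it called 0 (2 at an unadjusted p below 0.05, 2 by DESeq2 and 0 by limma-voom), where 16.1% of all genes were called. In Fc mice, 6 of the 8 were lower under the standard diet than under the HFD, beside 24.6% of all genes, among them Ifi30 (log2 fold change -0.56, SE 0.13, edgeR adjusted p = 0.00041), the thiol reductase that unfolds antigens, and Ctss (log2 fold change -0.60, SE 0.17, edgeR adjusted p = 0.0031). The median of the list was -0.30, against -0.96 for the 7 presentation genes and -0.05 for all genes tested. Without Fc mice 7 and 8, 4 of the 8 were called. In Fc(mML1)B3 mice 2 of the 8, Ctsz and Ifi30, were lower (median -0.21), beside 17.9% of all genes.

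Among 7 factors of the X and Y boxes, 2 were called between the proteins under the HFD, beside 14.8% of all genes. Rfxank, a subunit of the RFX complex, rose in Fc(mML1)B3 mice by 0.71 on the log2 scale (SE 0.097, edgeR adjusted p = 3.5e-05), and Rfx5, the DNA-binding subunit of the same complex, fell by 0.43 (SE 0.13, edgeR adjusted p = 0.032). Under the standard diet edgeR called 1 of the 7 factors, as lower, beside 7.55% of all genes. Rfxank was not called there (log2 fold change -0.18, edgeR adjusted p = 0.26), and the difference between the diets in its effect was -0.87 (SE 0.14, edgeR adjusted p = 5.1e-05). The third subunit, Rfxap, had a log2 fold change of 0.13 under the HFD (edgeR adjusted p = 0.34). Exons of Rfxank overlap those of Nr2c2ap on the opposite strand, and reads were counted without regard to strand. Its r with the class II genes was -0.02, and that of Rfx5 was 0.07. Between the diets, 2 of the 7 factors were higher and 1 lower under the standard diet in Fc mice, where 23.3% and 24.6% of all genes were. In Fc(mML1)B3 mice 2 were higher and 2 lower, where 20.7% and 17.9% of all genes were. The medians were 0.11 and -0.04.

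On the route from interferon gamma to Ciita, Ifng itself had 75 reads over all 36 libraries and was not tested. Of the 8 tested genes, Ifngr2, a chain of the interferon gamma receptor, fell in Fc(mML1)B3 mice under the HFD by 0.44 (SE 0.087, edgeR adjusted p = 0.0013), and Irf1, a transcription factor induced by interferon, by 0.33 (SE 0.10, edgeR adjusted p = 0.033) on the log2 scale. Under the standard diet Ifngr2 was again lower in Fc(mML1)B3 mice, by a log2 fold change of -0.24 (SE 0.074, edgeR adjusted p = 0.032), and was the 1 gene of the 8 called, beside 7.55% of all genes lower. Under the HFD the 2 calls of 8 stood beside 6.68% of all genes lower. Their count was 1 without Fc mice 7 and 8 and 4 without Fc(mML1)B3 mouse 5, and over all mice 3 by DESeq2 and 4 by limma-voom. Between the diets 2 of the 8 were lower and 1 higher in mice of either protein, with medians of -0.17 in Fc mice and -0.03 in Fc(mML1)B3 mice. Of all genes, 24.6% were lower and 23.3% higher in Fc mice, and 17.9% and 20.7% in Fc(mML1)B3 mice. Without Fc mice 7 and 8 of the HFD, 1 of the 8 was lower and 1 higher in Fc mice. Of 5 tested co-stimulation genes, Cd274, which encodes the inhibitory ligand PD-L1, fell by 0.56 under the HFD (SE 0.16, edgeR adjusted p = 0.023). That was 1 of 5 beside 6.68% of all genes lower, and edgeR called 0 of the 5 without Fc mice 7 and 8 (6.24% of all genes lower) and 2 without Fc(mML1)B3 mouse 5 (10.8%). Between the diets, 2 of the 5, Icosl and Cd274, were lower under the standard diet in Fc mice (log2 fold changes -0.81 and -0.47, edgeR adjusted p = 0.0010 and 0.012), beside 24.6% of all genes. Without Fc mice 7 and 8 of the HFD the count was 1, and the median of the list moved from -0.47 to -0.25. In Fc(mML1)B3 mice edgeR called 0 of the 5 (0 at an unadjusted p below 0.05, 0 by DESeq2 and limma-voom), beside 17.9% of all genes lower.

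MHC class I, the other antigen presentation pathway, shows peptides from inside the cell to CD8 T cells. Under the HFD, 4 of its 13 genes were lower in Fc(mML1)B3 mice by edgeR, beside 6.68% of all genes, namely Psmb9 (log2 fold change -0.70, adjusted p = 0.0012), Tap1 (-0.59, adjusted p = 0.00019), Nlrc5 (-0.46, adjusted p = 0.00011) and Tap2 (-0.30, adjusted p = 0.0088). Psmb9 encodes a subunit of the immunoproteasome, Tap1 and Tap2 the peptide transporter, and Nlrc5 the class I counterpart of Ciita. The count was also 4 without Fc mice 7 and 8. Under the standard diet 3 class I genes were higher, Psmb10, H2-K1 and Erap1, and 2 were lower, Calr and Pdia3, beside 8.56% and 7.55% of all genes. By edgeR's interaction test, 6 of the 13 genes responded differently to Fc(mML1)B3 under the 2 diets, all with a positive difference, beside 0 of the 7 class II genes. In all, 9.06% of genes were called in this test and 4.66% had a called positive difference. Between the diets in Fc mice, 8 of the 13 were lower under the standard diet, from -0.24 for B2m to -1.01 for Psmb9 on the log2 scale, and 3 were higher, where 24.6% and 23.3% of all genes were. In Fc(mML1)B3 mice 3 were lower, H2-D1, Tap2 and Psmb8, and 2 higher, Nlrc5 and Erap1, where 17.9% and 20.7% were. Whether the class I and class II lists differ from each other was not tested.

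Markers of class II positive cells were summed in each liver and set beside these results. Dendritic cell markers (10 of 10 genes found) summed to 33.96 to 87.8 CPM in the Fc HFD group, 33.5 to 76.0 in the Fc(mML1)B3 HFD group, 30.3 to 44.1 in the Fc standard diet group and 25.0 to 38.1 in the Fc(mML1)B3 standard diet group. Much of this sum was Itgax, which macrophages also express, with a mean of 36.5 CPM in Fc HFD livers, where each of the other 9 genes averaged 1.12 to 4.60 CPM. Recruited macrophage markers summed to 1001 to 2692, 940 to 2637, 858 to 1664 and 708 to 1334 CPM in the same order. Lyz2, Gpnmb and Spp1 made up most of that sum, with means of 644, 504 and 481 CPM in Fc HFD livers, while Trem2 and Ccr2 averaged 39.1 and 10.5 CPM. B cell markers summed to 12.5 to 28.8, 11.3 to 17.2, 11.7 to 18.8 and 12.8 to 19.8 CPM. No marker of these lists was at 0 in a whole group, and among plasma cell markers Tnfrsf17 was at 0 in both Fc(mML1)B3 groups.

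The livers highest in class II RNA were also high in several of these sums. Fc HFD mouse 7 had 76.4 CPM of dendritic cell markers, 1217 CPM of Kupffer cell markers, the highest of its group, and 84.7 CPM of neutrophil markers, where the group's median was 19.7. Fc HFD mouse 8 had 87.8 CPM of dendritic cell markers and 90.1 CPM of neutrophil markers, and was the highest of its group in both, as it was in B cell and in T and NK cell markers. Fc(mML1)B3 HFD mouse 5 was the highest of its group in dendritic cell (76.0 CPM), recruited macrophage (2637 CPM) and T and NK cell markers (23.9 CPM). It was also the highest in stellate cell (1539 CPM), cholangiocyte (855 CPM) and neutrophil markers (26.8 CPM), and the lowest in plasma cell, endothelial and hepatocyte markers (72005 CPM for the last). Spp1 is in both the recruited macrophage and cholangiocyte lists. It averaged 308 CPM in this group, and the other cholangiocyte markers 4.86 to 28.9 CPM. Of the plasma cell markers, Xbp1 and Sdc1 averaged 224 and 219 CPM there, and each of the others 5.21 CPM or less. The part of the cells behind these sums in the class II values was not tested.

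Gene by gene, the lists differed in how closely they followed the class II genes from mouse to mouse. The median r with the class II genes was 0.70 for the 10 recruited macrophage markers, 0.64 for 6 cholangiocyte markers, 0.57 for 7 neutrophil markers, 0.49 for 10 dendritic cell markers and 0.49 for 9 T and NK cell markers. It was 0.12 for 10 B cell markers, -0.003 for 10 Kupffer cell markers and -0.37 for 8 hepatocyte markers. The lists also differ in level, and genes with few reads carry more counting error. In Fc HFD livers, B cell markers averaged 0.619 (Cr2) to 7.58 CPM (Cd22) and recruited macrophage markers 1.99 (Ly6c2) to 644 CPM (Lyz2). Cd22 had an r of 0.70, Itgax (36.5 CPM) 0.73 and Ly6c2 0.72. The part of level in these medians was not tested. Within the Kupffer cell list, the complement genes C1qa, C1qb and C1qc had r of 0.68, 0.73 and 0.71, while Clec4f and Timd4, markers of resident Kupffer cells, had r of -0.34 and -0.18. These values describe shared variation among 36 livers and carry no test.

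**Figure D5:**
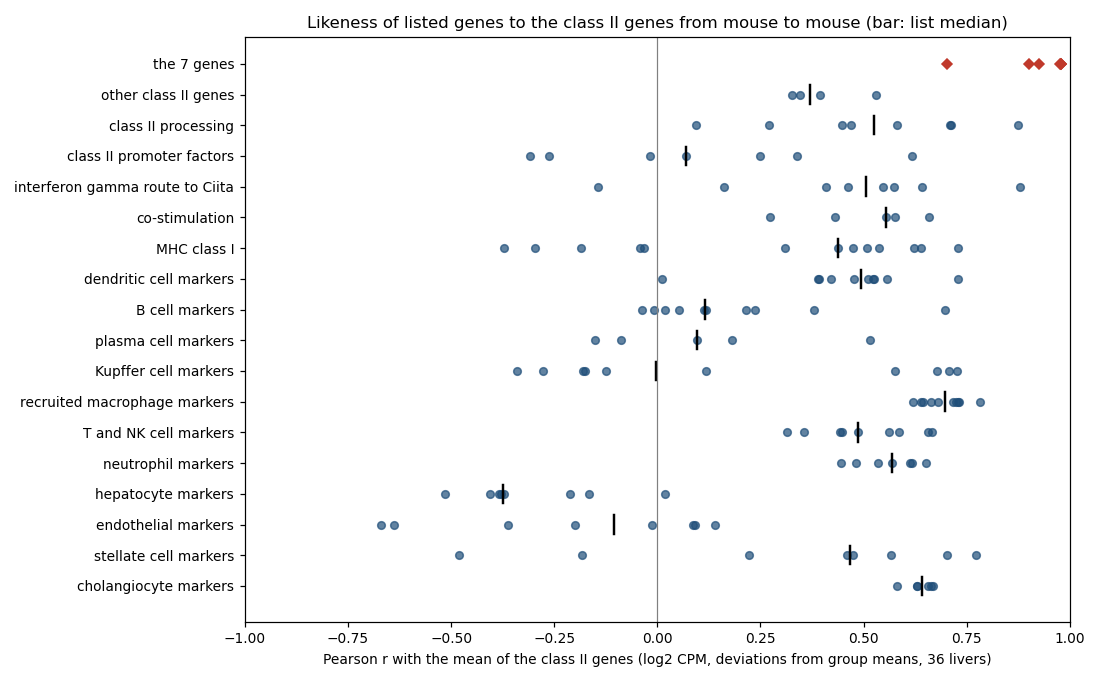
Pearson's r between each listed gene and the mean of the class II genes over 36 livers, on log2 CPM after taking away group means, with 1 point per gene, diamonds for the 7 genes and a bar at each list's median. Recruited macrophage markers lie between 0.62 and 0.78, hepatocyte markers between -0.51 and 0.02, and B cell markers mostly near 0.

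The marker lists also moved between groups. Under the HFD, where 6.68% of all genes were lower, 4 of 10 B cell markers were lower in Fc(mML1)B3 mice by edgeR (Cd22, Fcer2a, Cd79b and Ms4a1), with 3 called without Fc mice 7 and 8, and 4 of 5 tested neutrophil markers were lower, with 0 called without them and 1 by limma-voom. For dendritic cell markers edgeR called 0 of 10 (0 at an unadjusted p below 0.05, 0 by DESeq2 and limma-voom), and for recruited macrophage markers 0 of 10 (4 at an unadjusted p below 0.05, 1 by DESeq2 and 3 by limma-voom), with 6 of 10 called without Fc(mML1)B3 mouse 5. Under the standard diet 2 of 10 recruited macrophage markers, Gpnmb and Cd9, were lower, with 7.55% of all genes. Between the diets in Fc mice, 7 of 9 T and NK cell markers, 7 of 10 recruited macrophage markers, 5 of 10 dendritic cell markers, 4 of 10 B cell markers and 4 of 10 Kupffer cell markers were lower under the standard diet, beside 6 of the 7 class II genes and 24.6% of all genes. So were 5 of 8 stellate cell markers (median log2 fold change -0.52) and 3 of 6 cholangiocyte markers (-0.73). Without Fc mice 7 and 8 of the HFD, the counts were 4 for recruited macrophage, 2 for dendritic cell, 2 for Kupffer cell and 2 for cholangiocyte markers.

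In Fc(mML1)B3 mice, beside 5 of the 7 class II genes and 17.9% of all genes, 5 of 10 dendritic cell markers (median log2 fold change -0.57), 4 of 8 stellate cell markers (-0.50), 3 of 6 cholangiocyte markers (-0.84), 2 of 10 recruited macrophage markers (-0.37) and 2 of 9 T and NK cell markers (-0.52) were lower under the standard diet. Of the B cell markers 0 were lower and 2 of 10, Cd79a and Fcer2a, were higher (median 0.41), where 20.7% of all genes were higher. In the interaction test, 5 of 10 B cell markers had a called positive difference (Cd79a, Cd79b, Ms4a1, Cd22 and Fcer2a), beside 0 of the 7 class II genes and 4.66% of all genes, and 4 were called without Fc mice 7 and 8 of the HFD. The part of these cells in the diet differences was not tested.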

How the data were processed

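The authors made the deposited counts by trimming reads with Fastp, removing ribosomal RNA with Bowtie2 2.4.5, aligning to mm10 with STAR 2.7.10a and counting with featureCounts of Subread 2.0.3. Per the file headers, both ends of a pair had to align, and strand was ignored although the library kit keeps it. Each end was counted as a read. Counts were tested with the quasi-likelihood test of edgeR 4.0.16 (R 4.3.3, TMM, filterByExpr), over 13299 genes under the HFD, 13570 under the standard diet and 14105 over all libraries, with Benjamini-Hochberg adjustment and calls at an adjusted p below 0.05. A standard error is the log2 fold change over the square root of F, and a 95% interval is the estimate plus or minus that error times the t quantile at the test's total degrees of freedom. CPM used TMM over 36 libraries, RPKM added the gene length of the files, and log2 CPM a prior count of 2. Depth was 14949035 to 28466853 counts per library. Ratios within a library were tested with exact permutation tests in scipy 1.17.1 (2-sided, on the mean log2 ratio). The tests across genes were first tested on simulated data.

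Mice were grouped and numbered from the sample titles, 1 library each. The members, lists and likeness rule were chosen with earlier results of these data known. Named genes are the 7 members, list genes called or defining for their list, and the 10 genes most like the members. Mice of equal number were not treated as pairs in the main tests. The r of their deviations was -0.62 to 0.26 under the HFD and -0.16 to 0.00093 under the standard diet, which cannot exclude a pairing. Alternatives were DESeq2 1.42.0, limma-voom (limma 3.58.1), other normalizations and filters, limits on fold change (2-fold with an adjusted p of 0.1 for HFD mice, 1.5-fold with 0.05 for standard diet mice), a replicate block, runs of S numbers and each library left out. Leaving out Fc mice 7 and 8, Fc(mML1)B3 mouse 5 and, between the diets, single runs of S numbers, and applying the HFD limits under the standard diet, was added after seeing the data.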

Additional observations from a re-analysis of the deposited data

Results flagged for a closer look

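Among 28 sets of values (7 genes in 4 groups), 4 held a mouse set apart from its group by Dixon's criterion at the 95% level, which chance meets in about 1 group in 20. All 4 concern mouse 5 of the Fc(mML1)B3 HFD group, and since the genes move together they are not separate events. This mouse had 219 CPM of H2-Aa, where the next mouse had 151, 189 CPM of H2-Ab1 (next 136), 163 CPM of H2-Eb1 (next 111) and 509 CPM of Cd74 (next 373).

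By edgeR's interaction test, no class II gene was called, and 7 genes of the promoter factor and MHC class I lists responded differently to Fc(mML1)B3 under the 2 diets at an adjusted p below 0.05, a limit met by 9.06% of all genes. The log2 effect under the standard diet minus that under the HFD was -0.87 for Rfxank and positive for 6 class I genes, namely 0.91 for Psmb9, 0.68 for Tap1, 0.62 for Psmb10, 0.53 for Nlrc5, 0.34 for Tapbp and 0.34 for Tap2. Among the markers of cell types, 5 of 10 B cell markers were called, with 1.23 for Ms4a1, 1.22 for Fcer2a, 1.17 for Cd79b, 0.92 for Cd79a and 0.73 for Cd22. So were 1 of 5 tested plasma cell markers, Mzb1, at 1.83, and 1 of 8 hepatocyte markers, Hnf4a, at -0.44. Diet, experiment and dosing cannot be told apart in these values.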

How the results depend on the processing

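Counts of the 7 genes called kept within 1.5 times of the reported ones under DESeq2, other normalizations, other filters and limits on fold change, and no value changed sign there. Limma-voom gave 2 calls under the HFD instead of 0. Leaving out each library in turn gave 0 to 4 calls under the HFD, 0 to 0 under the standard diet and for the interaction, 6 to 6 between the diets in Fc mice and 3 to 5 in Fc(mML1)B3 mice. Between the diets in Fc(mML1)B3 mice, 2 genes were called with the HFD libraries of the first run of S numbers only and 3 with those of the second. These runs hold 4 and 6 mice.

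The replicate block, with mouse numbers as a factor, changed no call of the 7 genes (median log2 fold change -0.39 under the HFD, -0.17 under the standard diet, 0.24 for the interaction) and left 1294, 1296 and 808 of all genes called, against 1972, 2186 and 1278. H2-DMa under the standard diet turned to -0.026 with the block. No block was fitted between the diets, whose mice share only numbers.

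The other changes of sign concerned values close to 0. Ciita turned to 0.017 under the standard diet and to 0.092 between the diets in Fc(mML1)B3 mice with limma-voom, to 0.33 in the latter with the first run only and to 2.36e-05 without mouse 5, and to -0.010 for the interaction without Fc mice 7 and 8. With 1 library left out, signs turned under the standard diet in Ciita (range -0.17 to 0.022), H2-DMb1 (-0.22 to 0.00046) and H2-DMa (-0.0018 to 0.14), and between the diets in Fc(mML1)B3 mice in Ciita (-0.13 to 0.066). The H2-DMa to H2-Ab1 log2 ratio between the diets in Fc(mML1)B3 mice ran from -0.088 to 0.0091 with 1 library left out and turned to 0.041 with the second run of HFD libraries. With the first run, Cd74 to H2-Ab1 differed between the diets in Fc(mML1)B3 mice at an unadjusted exact p of 0.030 (log2 ratio -0.072). The same ratio also had an unadjusted exact p below 0.05 without Fc(mML1)B3 HFD mouse 7, and in Fc mice without HFD mouse 3 or standard diet mouse 6 (lowest p 0.037). The causes were not tested. Ciita rested on 22 to 171 reads a library.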
